A study of Saccharomyces cerevisiae with 15 samples.

Results

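The subjects here are 7 budding yeast genes that make or break down phosphate stores: VTC1, VTC2, VTC3 and VTC4, which encode the vacuolar polyphosphate polymerase, and PPX1, PPN1 and PHM8, which encode phosphatases. They were chosen by gene name, with earlier results of these data known, from 5656 genes with a probe set of their own on the Affymetrix YG-S98 array, and all 7 were measured. Where a gene had several probe sets, the one read was selected on its signal, as the highest mean over the arrays, so that brightness is not a result. This applied only to VTC4, which had 2 probe sets. PHM8 is named after phosphate metabolism but is known as a lysophosphatidic acid and nucleotide phosphatase, so it is not a polyphosphatase.

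Polyphosphate is a chain of phosphate units that yeast keeps mainly in the vacuole. Vtc4 holds the catalytic domain that makes the chain from ATP and passes it across the vacuolar membrane. Vtc1 is a small membrane subunit, and Vtc2 and Vtc3 are related subunits that occur in alternative forms of the complex. Vtc2, Vtc3 and Vtc4 carry SPX domains, which bind inositol pyrophosphates and so report the phosphate state of the cell. Ppn1 cuts polyphosphate in the vacuole, and Ppx1 removes phosphate from chain ends in the cytosol. The VTC genes and PHM8 belong to the PHO regulon, the genes that the transcription factor Pho4 switches on when phosphate is scarce.

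Growing Saccharomyces cerevisiae in synthetic dextrose medium gave 15 samples of total RNA, each hybridised to 1 array. The 5 groups had 3 biological replicates each: yeast with an empty vector, yeast expressing a Pdr1-Cyc8 fusion, yeast expressing a Pdr1-Sin3 fusion, yeast with a deletion of the endogenous PDR1 gene (Dpdr1), and Dpdr1 yeast expressing Pdr1-Cyc8. Pdr1 activates drug resistance genes, and Cyc8 and Sin3 are parts of corepressor complexes; the study used fusions of these as repressors of such genes. The titles of the deletion samples name no vector, and no source used here gives the strain background, the promoter or the vector.

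Total signal was 6839487 to 7739820 per array, and the number of arrays limits the precision. The labels were checked on the targeted and fused genes. PDR1 was at 9.08 ± 0.16 on the log2 scale with the empty vector, 4.70 ± 0.40 in the deletion and 6.94 ± 0.24 in the deletion with Pdr1-Cyc8 (SD, n = 3 each). CYC8 was at 12.26 ± 0.30 and 11.58 ± 0.52 in the groups with its fusion and SIN3 at 11.45 ± 0.13 in the group with its own, against 8.69 ± 0.056 and 8.21 ± 0.085 with the empty vector. In their hybridisation controls the 9 arrays from 3 groups (empty vector, deletion, Pdr1-Cyc8) differed from the 6 arrays of the remaining groups, and they are called the first and second array set: BioC minus BioB was 1.02 to 1.32 on the log2 scale on the former and -0.64 to -0.20 on the latter. No group spanned both sets, so in a comparison across them the set and the group cannot be told apart. One probe set that names no gene, noticed only once its values were known, stood at 13.97 ± 0.16 in the deletion and at 4.48 ± 0.27 in the deletion with Pdr1-Cyc8 (SD, n = 3). Those groups may therefore differ in strain besides the fusion, and whether that bears on the values below was not tested.

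Levels are given as log2(signal + 16) after quantile normalisation, and differences as the first group minus the second on that scale. A difference was called at an adjusted p under 0.05 in a limma fit of all 15 arrays and 9275 probe sets, and n is 3 arrays in every group. None of the 7 genes had a deposited signal under 16 on any array, and all 7 lay above the dimmest 25% of probe sets. On an array, a lower share of cells expressing a gene and less RNA per cell cannot be told apart.

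VTC1, the small membrane subunit, was measured as follows. With the empty vector its level was 12.01, 11.07 and 11.85 on replicates 1, 2 and 3. With Pdr1-Cyc8 it was 10.93, 11.17 and 11.15, and with Pdr1-Sin3 it was 13.03, 12.89 and 12.89. The Pdr1-Sin3 arrays were the highest, and empty vector replicate 2 lay within the range of the Pdr1-Cyc8 arrays. In the deletion VTC1 was 10.95, 11.06 and 11.35, and in the deletion with Pdr1-Cyc8 it was 12.42, 12.11 and 12.41. From high to low the group means ran Pdr1-Sin3, Pdr1-Cyc8 in the deletion, empty vector, deletion and Pdr1-Cyc8. The ranges of the last 3 overlapped in that order, and the others were separate.

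VTC2 and VTC3, the alternative SPX subunits, had the same order of group means as VTC1. VTC2 was 9.66, 9.30 and 9.39 with the empty vector, 8.60, 8.94 and 8.95 with Pdr1-Cyc8, and 10.23, 10.04 and 9.94 with Pdr1-Sin3. It was 8.98, 9.02 and 9.76 in the deletion, and 9.76, 9.67 and 9.77 in the deletion with Pdr1-Cyc8. The Pdr1-Cyc8 arrays lay below every array of the other groups, and the Pdr1-Sin3 arrays above every one of them. Deletion replicate 3 stood apart from the other deletion arrays and reached the level of the deletion with Pdr1-Cyc8.

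VTC3 was 9.44, 8.77 and 9.27 with the empty vector, 8.13, 8.46 and 8.08 with Pdr1-Cyc8, and 10.16, 10.10 and 10.06 with Pdr1-Sin3. In the deletion it was 8.95, 8.67 and 9.50, and in deletion cells carrying Pdr1-Cyc8 9.15, 9.13 and 9.32. The Pdr1-Sin3 arrays were again above and the Pdr1-Cyc8 arrays below every other array, while the middle 3 groups overlapped in their ranges.

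VTC4, the catalytic subunit, was 11.22, 10.68 and 11.20 with the empty vector, 10.20, 10.19 and 10.44 with Pdr1-Cyc8, and 11.55, 11.88 and 11.62 with Pdr1-Sin3. It was 10.80, 10.15 and 11.21 in the deletion, and 10.98, 10.11 and 10.97 in the deletion with Pdr1-Cyc8. The Pdr1-Sin3 arrays were the highest. The other groups overlapped in order of their means, and the lowest arrays were replicate 2 of each deletion group. The dimmer VTC4 probe set had group means of 10.54 ± 0.29, 10.09 ± 0.16, 10.90 ± 0.43, 10.41 ± 0.49 and 10.14 ± 0.39 (SD, n = 3) for the empty vector, Pdr1-Cyc8, Pdr1-Sin3, the deletion, and the deletion with Pdr1-Cyc8. On it the ranges of the Pdr1-Sin3 and empty vector arrays overlapped.

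The polyphosphatases varied less. Among empty vector arrays PPX1 ran from 7.98 to 8.15, among Pdr1-Cyc8 arrays from 7.79 to 8.64, and it was 8.21 to 8.42 with Pdr1-Sin3, 8.19 to 8.76 in the deletion and 8.17 to 8.43 in the deletion with Pdr1-Cyc8. Neighbours in the order of PPX1 means overlapped throughout. PPN1 ran from 8.20 to 8.48, 8.19 to 8.56, 8.18 to 8.78, 8.82 to 8.94 and 8.54 to 8.66 in the same groups. For PPN1 the deletion arrays lay above all others, and the other neighbours overlapped.

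PHM8 was spread widely within the Pdr1-Cyc8 and deletion groups. It was 7.74, 8.29 and 8.33 with the empty vector, 9.69, 9.01 and 8.17 with Pdr1-Cyc8, and 9.11, 8.98 and 9.13 with Pdr1-Sin3. It was 9.97, 10.14 and 8.01 in the deletion, and 6.98, 7.62 and 7.35 in the deletion with Pdr1-Cyc8. Replicate 3 of the deletion and of Pdr1-Cyc8 lay within the empty vector range, far below the other arrays of their groups, and the deletion with Pdr1-Cyc8 had the lowest 3 arrays.

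**Figure D1:**
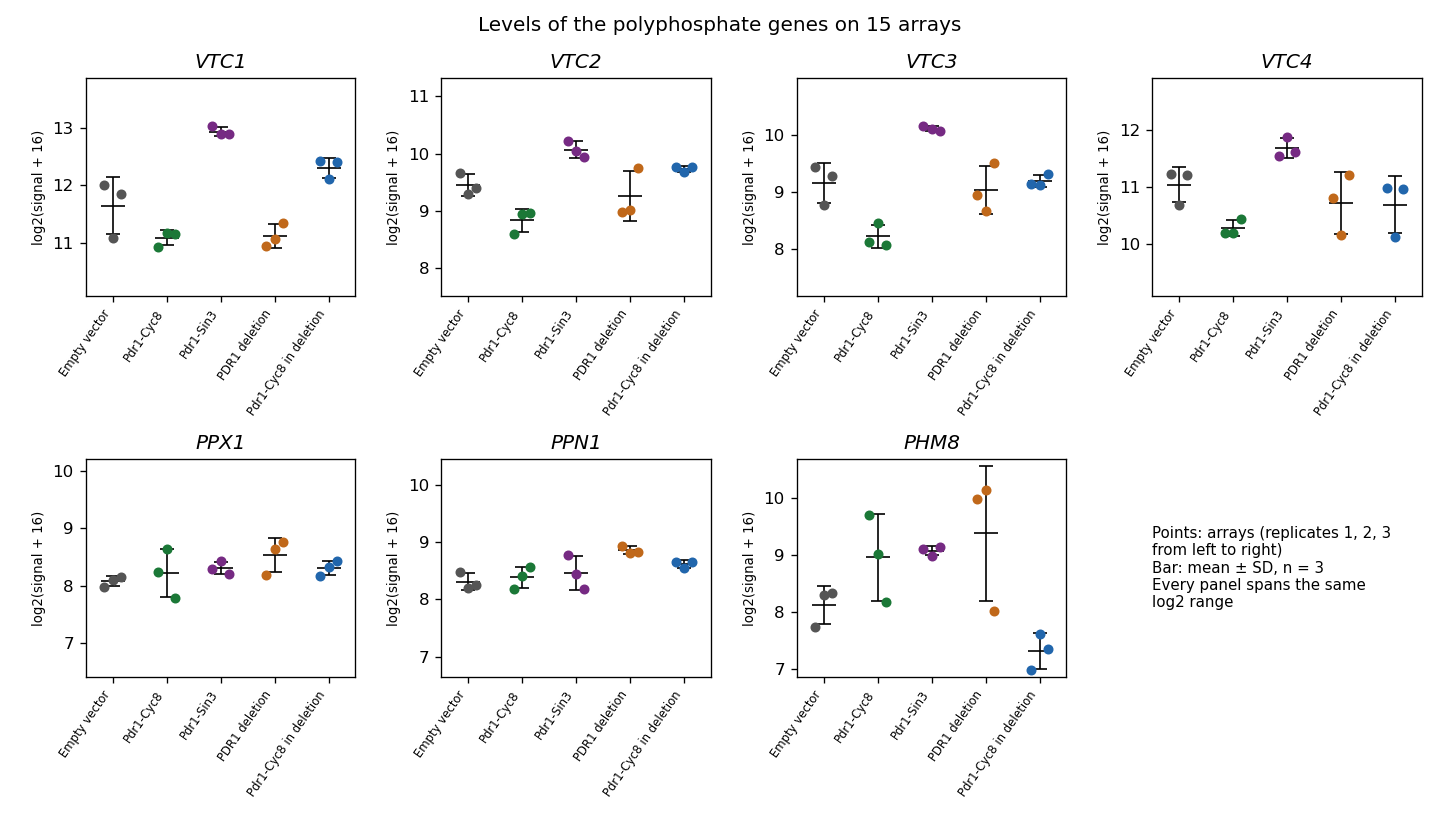
Level of each gene, log2(signal + 16), on the 15 arrays by group. Points are arrays, bars are means with SD (n = 3), and each panel spans the same log2 range; the 3 Pdr1-Sin3 arrays are highest for VTC1, VTC2, VTC3 and VTC4, and PHM8 is spread widely in the Pdr1-Cyc8 and deletion groups.

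How the corepressors compare was addressed first by setting Pdr1-Sin3 against Pdr1-Cyc8, across the array sets. All 4 polymerase genes were higher with Pdr1-Sin3. VTC3 was higher by 1.88 (SE 0.236, adjusted p = 0.000546), a 3.69-fold difference, and VTC1 by 1.85 (SE 0.235, adjusted p = 0.000575). VTC4 was higher by 1.41 (SE 0.29, adjusted p = 0.0187) and VTC2 by 1.24 (SE 0.224, adjusted p = 0.00815). In this comparison 2.72% of all probe sets were called, 1.68% higher, and the median of the 4 genes was 1.63 against -0.01 over all genes. The phosphatases were not called: PPX1 differed by 0.09 (95% interval -0.40 to 0.57), PPN1 by 0.09 (-0.33 to 0.50) and PHM8 by 0.11 (-0.88 to 1.10). VTC4 lost its call in 4 of 6 fits that left out an array: Pdr1-Cyc8 replicate 1 (adjusted p = 0.0743) and Pdr1-Sin3 replicates 1, 2 and 3 (0.0574, 0.0754 and 0.0507); over 17 alternatives the adjusted p was 0.00622 to 0.0754, and its dimmer probe set gave 0.81 (adjusted p = 0.152).

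Against the empty vector, whose arrays are shared by the next 3 comparisons, 2 of the 4 VTC genes were called with Pdr1-Sin3 and none with Pdr1-Cyc8 or in the deletion. With Pdr1-Sin3, a comparison across the array sets, VTC1 rose by 1.29 (SE 0.235, adjusted p = 0.00713), a 2.45-fold rise, and VTC3 by 0.94 (SE 0.236, adjusted p = 0.0375). These were 2 of 7 genes called where 3.71% of all probe sets were, 2.65% higher. VTC4 (0.65, SE 0.29, adjusted p = 0.24) and VTC2 (0.62, SE 0.224, adjusted p = 0.139) did not pass, and neither did PHM8 (0.95, SE 0.464, adjusted p = 0.28). The Pdr1-Sin3 arrays lay above all empty vector arrays for 6 of the 7 genes, PPN1 being the exception, where 14.7% of all probe sets did so. The VTC1 call held under each of 17 alternatives (adjusted p 0.0024 to 0.0389). The VTC3 call was lost with median centring (adjusted p = 0.0512), with a pseudocount of 1 (0.0626) and with replicate number as a block (0.0541). It was also lost in 5 of 6 fits that left out an array. The arrays were empty vector replicates 2 and 3 (adjusted p = 0.167 and 0.0695) and Pdr1-Sin3 replicates 1, 2 and 3 (0.123, 0.0976 and 0.0855). Over 17 alternatives the adjusted p of VTC3 ran from 0.0114 to 0.167.

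With Pdr1-Cyc8, within the first array set, limma called none of the 7 genes, where 0.712% of all probe sets were called. At an unadjusted p under 0.05 there were 4, the polymerase genes, against 9.80% of all probe sets. VTC3 was -0.94 (SE 0.236, adjusted p = 0.106), VTC4 -0.76 (SE 0.29, adjusted p = 0.382), VTC2 -0.62 (SE 0.224, adjusted p = 0.342) and VTC1 -0.56 (SE 0.235, adjusted p = 0.436). For VTC2, VTC3 and VTC4 all Pdr1-Cyc8 arrays lay below all empty vector arrays, as they did for 8.32% of all probe sets. On the dimmer VTC4 probe set these arrays overlapped, and limma gave -0.45 (unadjusted p = 0.143, adjusted p = 0.648). PHM8 was 0.84 (adjusted p = 0.585), and it ran from 0.47 without Pdr1-Cyc8 replicate 1 to 1.23 without Pdr1-Cyc8 replicate 3. PPX1 and PPN1 were 0.15 (95% interval -0.34 to 0.63) and 0.08 (-0.34 to 0.49). No call was made for any of the 7 genes under 18 alternatives.

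The loss of PDR1 alone, also within the first set, gave no call among the 7 genes by limma, where 0.0323% of all probe sets were called. At an unadjusted p under 0.05 there were 3 genes, PHM8, PPN1 and VTC1, against 13.7% of all probe sets. PHM8 was 1.25 (SE 0.464, adjusted p = 0.287), PPN1 0.55 (SE 0.196, adjusted p = 0.265) and VTC1 -0.53 (SE 0.235, adjusted p = 0.34). All deletion arrays lay above all empty vector arrays for PPX1 and PPN1, as they did for 6.42% of all probe sets. The PHM8 value turned on single arrays: without deletion replicate 3 it was 1.94 (adjusted p = 0.00491). When the 3 arrays with the lowest ribosome assembly values (Pdr1-Cyc8 replicate 1, deletion replicates 1 and 2) were left out, it was -0.11 (adjusted p = 0.999), which is also the highest over 18 alternatives. That fit kept 1 deletion array, whose spread was taken from the other groups.

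In cells without PDR1, Pdr1-Cyc8 was compared with the deletion alone, across the array sets. VTC1 rose by 1.19 (SE 0.235, adjusted p = 0.00354), a 2.29-fold rise, and PHM8 fell by 2.06 (SE 0.464, adjusted p = 0.00777), a 4.17-fold fall. These 2 of 7 stood against 19.0% of all probe sets called, 10.3% higher and 8.70% lower, so the share of members called was near the background. VTC2 (0.48, adjusted p = 0.147), VTC3 (0.16, adjusted p = 0.696) and VTC4 (-0.03, adjusted p = 0.956) did not pass. With those 3 arrays left out VTC1 was 0.96 and PHM8 was -0.70, and neither call held in that fit, which kept 1 deletion array. Over all alternatives the lowest adjusted p was 0.00171 for VTC1 and 0.000171 for PHM8.

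Whether the effect of Pdr1-Cyc8 differed with and without PDR1 was tested as an interaction, across the array sets. The interaction was the fusion's effect in the deletion minus its effect in cells that keep PDR1. It was 1.75 for VTC1 (SE 0.332, adjusted p = 0.00702), 1.10 for VTC2 (SE 0.316, adjusted p = 0.0365), 1.10 for VTC3 (SE 0.334, adjusted p = 0.046) and -2.90 for PHM8 (SE 0.657, adjusted p = 0.0152). VTC4 (0.73, adjusted p = 0.261), PPX1 (-0.37) and PPN1 (-0.32) did not pass. Of all probe sets 11.5% were called, 6.20% higher and 5.30% lower. The VTC1 and PHM8 calls held whichever single array was left out. VTC2 and VTC3 each lost theirs in 9 of those 12 fits. VTC2 kept it without empty vector replicate 2, Pdr1-Cyc8 replicate 3 or deletion replicate 3, and VTC3 without empty vector replicate 2, Pdr1-Cyc8 replicate 2 or deletion replicate 3. Over the 12 fits VTC2 was 0.97 to 1.35 and VTC3 0.91 to 1.33. Both calls also ended with a pseudocount of 1 (adjusted p = 0.0529 and 0.0638) and with replicate number as a block (0.0528 and 0.0604). They ended too in a fit of only these groups (0.0592 and 0.0742), and that of VTC3 with median centring (0.0534). With the same 3 arrays left out the values were 1.45 (VTC1), 0.48 (VTC2), 0.59 (VTC3) and -1.17 (PHM8), and no call held. That fit kept 1 deletion array, whose spread was taken from the other groups. Over all alternatives the lowest adjusted p of these genes was 0.00193, 0.00391, 0.00862 and 0.000329.

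Within the second array set, Pdr1-Cyc8 in the deletion was compared with Pdr1-Sin3. These groups differ in the fusion and in the endogenous PDR1 gene, so the parts of fusion and deletion cannot be told apart. Limma called none of the 7 genes, where 2.53% of all probe sets were called, and 4 had an unadjusted p under 0.05 against 17.6% of all probe sets. VTC4 was -0.99 (SE 0.29, adjusted p = 0.0811), VTC3 -0.91 (SE 0.236, adjusted p = 0.0534), VTC1 -0.63 (SE 0.235, adjusted p = 0.171) and VTC2 -0.34 (SE 0.224, adjusted p = 0.484). PHM8 was -1.76 (SE 0.464, adjusted p = 0.0561). For these 5 genes all arrays of the deletion with Pdr1-Cyc8 lay below all Pdr1-Sin3 arrays, as for 13.7% of all probe sets. On the dimmer VTC4 probe set (-0.76, adjusted p = 0.179) the arrays of these groups overlapped. A fit of these 6 arrays alone called VTC3 (adjusted p = 0.0273, from 0.0196 to 0.154 over all alternatives) and PHM8 (adjusted p = 0.00372, from 0.00372 to 0.175). VTC4 was called with median centring (adjusted p = 0.0422) and with array weights (0.0375), and ran from 0.0375 to 0.284 over all alternatives.

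**Figure D2:**
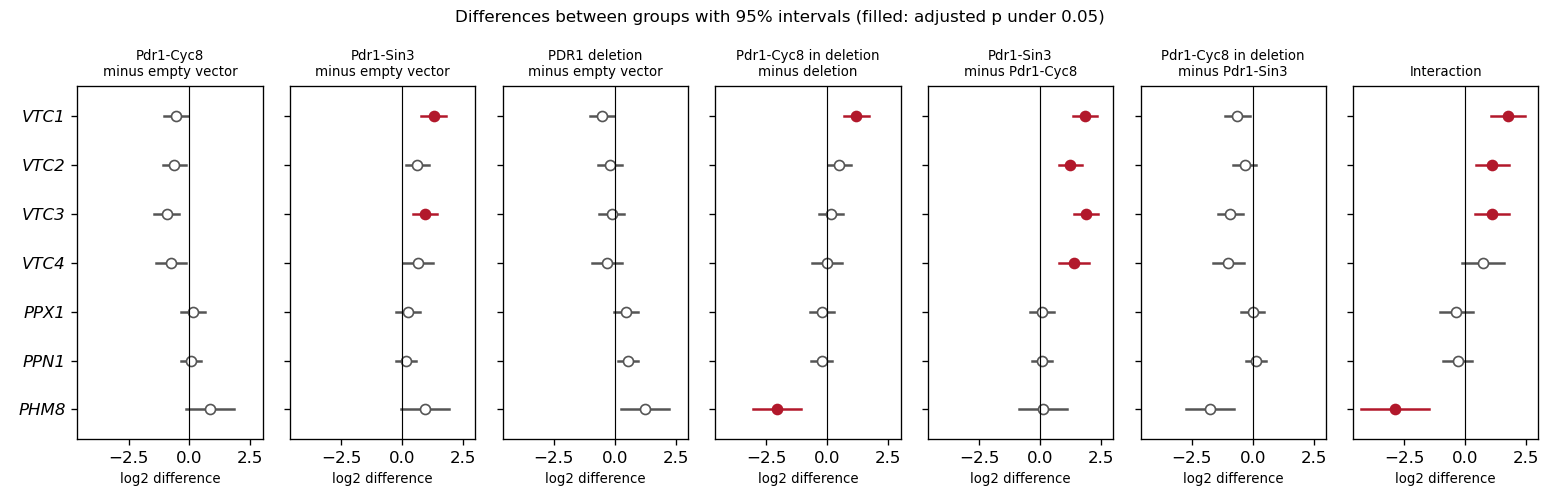
Difference of each gene in the 7 comparisons, log2 scale, first group minus second, with 95% intervals from the fit of all 15 arrays. Filled red points passed an adjusted p of 0.05; the 4 VTC genes are filled for Pdr1-Sin3 minus Pdr1-Cyc8, and PPX1 and PPN1 are open in every panel.

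The 4 polymerase genes also moved together from array to array within groups. Empty vector replicate 2 was the lowest array of its group for all 4 genes, and so was replicate 2 of the deletion with Pdr1-Cyc8. Deletion replicate 3 was the highest of its group for all 4. Over the 15 arrays the 6 pairs of VTC genes had Pearson correlations of 0.74 to 0.93, and of 0.57 to 0.79 after each group's mean was taken out. These are descriptions of arrays that share groups and array sets. PHM8 went the other way within groups, with -0.90 against VTC2 and -0.52 against VTC1. Over the 15 arrays with group means kept, these were -0.43 and -0.33. Deletion replicate 3 lay farthest from its group mean for PHM8 (-1.36), with 0.50 for VTC2, and its part in these correlations was not tested.

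PHM8 is set here beside genes of ribosome assembly, which fall when growth slows, and of the environmental stress response. Of 60 ribosome assembly genes 59 were measured, and their mean relative to the empty vector was lowest on deletion replicate 2 (-1.74), deletion replicate 1 (-1.53) and Pdr1-Cyc8 replicate 1 (-1.31). On these same arrays PHM8 was highest, at 2.02, 1.85 and 1.57 above its empty vector mean. Deletion replicate 3 had -0.13 for ribosome assembly and -0.11 for PHM8. The Pdr1-Sin3 arrays had -0.81 to -0.66 for ribosome assembly and 0.86 to 1.01 for PHM8, and the deletion with Pdr1-Cyc8 had -0.12 to -0.04 and -1.14 to -0.50. Environmental stress genes, 33 of 33 measured, averaged 0.52 to 1.02 with Pdr1-Cyc8, 1.17 to 1.47 with Pdr1-Sin3, 0.51 to 0.76 in the deletion, 0.36 to 0.53 in the deletion with Pdr1-Cyc8, and -0.23 to 0.37 with the empty vector. The part of these states in the PHM8 and VTC values was not tested.

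For the VTC genes the mean relative to the empty vector was 0.80 to 0.92 with Pdr1-Sin3 and -0.86 to -0.63 with Pdr1-Cyc8, and ribosome assembly genes were below 0 on all 6 of these arrays. In the deletion it was -0.40 and -0.60 on replicates 1 and 2 and 0.13 on replicate 3.

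**Figure D3:**
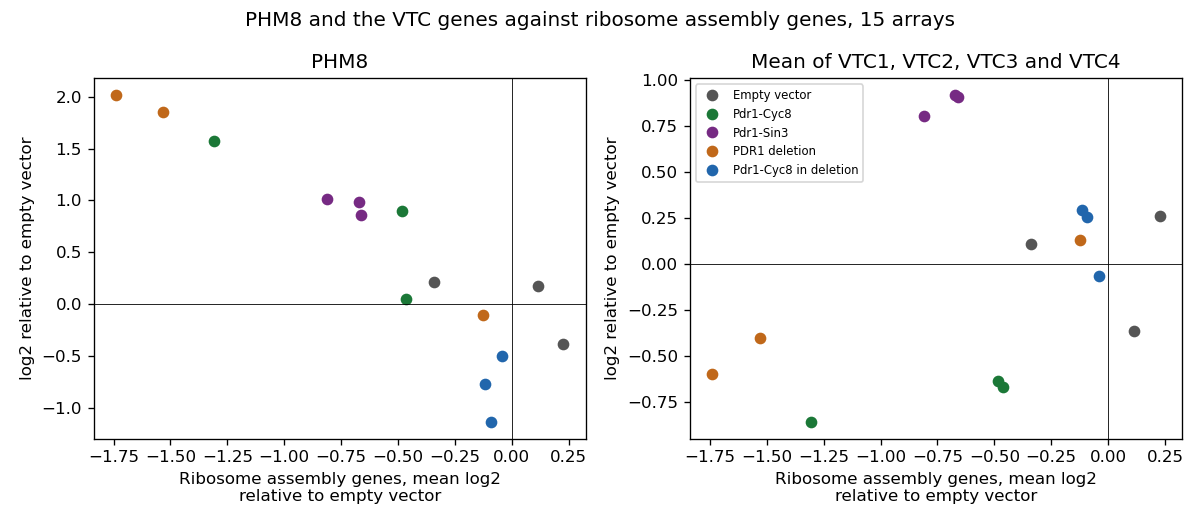
PHM8 (left) and the mean of the 4 VTC genes (right) against the mean of 59 ribosome assembly genes on each of 15 arrays, all as log2 relative to the empty vector mean. Points are arrays coloured by group; the 3 arrays farthest left are the 3 highest for PHM8, and the Pdr1-Sin3 and Pdr1-Cyc8 arrays separate in the VTC panel.

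Other genes of the PHO regulon were read from a list of 13, of which 11 were measured by a probe set of their own. Between Pdr1-Sin3 and Pdr1-Cyc8, 7 of 11 were called higher with Pdr1-Sin3 and none lower, where 85 of 5656 genes were called higher. All 11 differences were above 0, with a median of 1.13. The largest were PHO84, the high-affinity phosphate transporter (4.97, SE 0.716, adjusted p = 0.0017), PHO5, a secreted acid phosphatase (3.78, SE 0.435, adjusted p = 0.000237), SPL2, an inhibitor of low-affinity phosphate uptake (3.76, SE 0.47, adjusted p = 0.000546), and PHM6 (2.78, SE 0.391, adjusted p = 0.00144). With Pdr1-Cyc8, PHM6 had deposited signals of 7.4 to 17.8, around the pseudocount of 16, and SPL2 had 26.0 to 34.3, near it. The sizes of both differences therefore depend on that setting. PHO81, the inhibitor of the Pho80-Pho85 kinase that restrains Pho4, was higher by 1.13 (adjusted p = 0.0429). Against the empty vector 3 of 11 were called higher with Pdr1-Sin3, where 180 of 5656 genes were, among them the sodium-phosphate cotransporter PHO89 (2.10, adjusted p = 0.00391), and all 11 differences were above 0, with a median of 1.29 against -0.02 over all genes. With Pdr1-Cyc8 2 of 11 were called lower, where 13 of 5656 genes were: PHO84 (-3.67, adjusted p = 0.0261) and PHO5 (-2.10, adjusted p = 0.034). Of these 11 differences 3 were above 0, and the median was -0.34.

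In the deletion limma called none of the 11, with 1 at an unadjusted p under 0.05, where 904 of 5656 genes had one. Between the deletion with Pdr1-Cyc8 and the deletion alone 1 of 11 was called higher, PHO89 (1.52, adjusted p = 0.00882), where 691 of 5656 genes were. The interaction was called for 3 of 11, all higher, where 433 of 5656 genes were: PHO84 (4.38, adjusted p = 0.0161), PHO5 (2.86, adjusted p = 0.0123) and PHO89 (1.68, adjusted p = 0.0418). In the second array set 3 of 11 were called lower, where 77 of 5656 genes were. SPL2, PHM6 and PHO5 were lower in the deletion with Pdr1-Cyc8 than with Pdr1-Sin3, by -2.17, -2.12 and -1.74 (adjusted p = 0.0239, 0.0101 and 0.047). PHM6 had deposited signals of 28.8 to 38.0 in the deletion with Pdr1-Cyc8, near the pseudocount. Empty vector replicate 2, the lowest of its group for all VTC genes, also had the lowest PHO84 (10.23 against 12.83 and 12.37) and PHO5 (8.57 against 10.88 and 10.12).

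**Figure D4:**
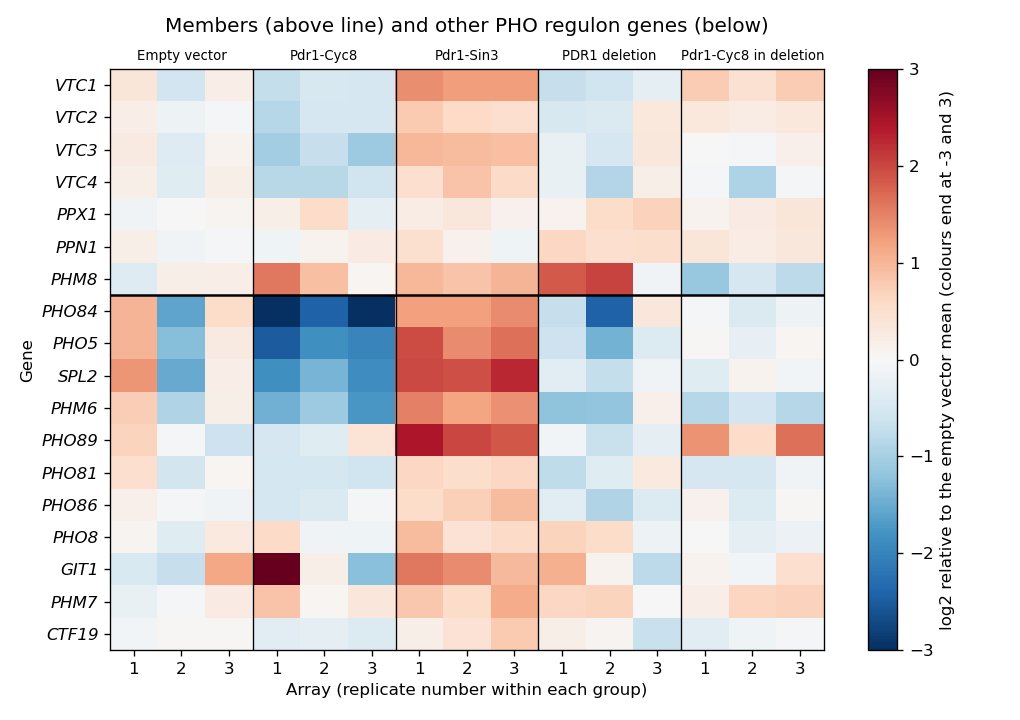
Log2 level relative to the empty vector mean of the 7 genes (above the line) and 11 other PHO regulon genes (below) on each of 15 arrays, in columns by group and replicate number. Red is higher and blue lower, with colours ending at -3 and 3; the VTC genes and PHO84, PHO5, SPL2 and PHM6 are red on the Pdr1-Sin3 arrays and blue on the Pdr1-Cyc8 arrays.

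The genes whose pattern was most like the mean of the 4 VTC genes were sought among 3909 genes with a mean level of at least 7, by Pearson correlation over the 15 arrays. They were PHO5 (0.97), SPL2 (0.93), PHO84 (0.91), the DNA polymerase clamp gene POL30 (0.89), AGE2 (0.88), the RNase P RNA gene RPR1 (0.87), CDC26 (0.86), which encodes a subunit of the anaphase-promoting complex, and PHO81 (0.85). Of these 8 genes 4 belong to the PHO list, of which 7 genes were among those compared. SPL2 reached the mean level of 7 only through the Pdr1-Sin3 arrays (9.27, against 5.51 to 7.21 in the other groups). The VTC genes were highest on those arrays too, so for SPL2 the filter was tied to the pattern sought. With group means taken out, PHO84 had 0.85, PHO5 0.82, PHO81 0.81, AGE2 0.72, SPL2 0.64, POL30 0.49, CDC26 0.48 and RPR1 0.40. The arrays share groups and array sets, so these values describe the data and carry no test.

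Genes that act on polyphosphate, phosphate signalling or the vacuole were read from further lists. The hydrolase gene PHO8 was in the PHO list too. Of 7 genes linked to polyphosphate (VTC5, PPN2, DDP1, PHO91, KCS1, VIP1 and SIW14) none was called by limma in any of the 7 comparisons, with 0 to 2 at an unadjusted p under 0.05 in each. VTC5 was at 7.69 ± 0.26 with the empty vector, 8.01 ± 0.16 with Pdr1-Cyc8 and 8.23 ± 0.22 with Pdr1-Sin3 (SD, n = 3). Between Pdr1-Sin3 and Pdr1-Cyc8 the median of the 7 genes was 0.17, with 5 above 0, and PPN2 differed by 0.74 (adjusted p = 0.101). Of 6 PHO signalling and low-affinity transport genes limma called none between those fusions (2 at an unadjusted p under 0.05, median -0.23). It called none of 15 genes of the vacuolar proton pump (3 unadjusted, median 0.18) and none of 7 vacuolar hydrolases (0 unadjusted, median 0.09). In that comparison 1062 of 5656 genes had an unadjusted p under 0.05, and over the 7 comparisons 652 to 1873 did. Between Pdr1-Sin3 and the empty vector 4 of the 6 signalling and transport genes had one, against 1227 of 5656 genes, and limma called none. PHO90 (-1.13), PHO87 (-0.83) and PHO4 (-0.47) were lower and PHO2 (1.21) was higher. PHO2 had deposited signals of 1.9 to 27.8 with the empty vector, around the pseudocount. Between the deletion with Pdr1-Cyc8 and the deletion alone, across the array sets, 691 of 5656 genes were called higher and 377 lower. In it 5 of 15 pump genes were called higher, such as VMA7 (1.44, adjusted p = 0.00203). PHO2, a factor that acts with Pho4, was called higher too (1.30, adjusted p = 0.0213), with deposited signals of 10.3 to 40.8 in the deletion, near the pseudocount, so the size is uncertain. The vacuolar peptidases APE1 (-1.98, adjusted p = 0.0068) and PRC1 (-0.90, adjusted p = 0.012) were called lower, 2 of 7 hydrolases. In the interaction, also across the array sets, 433 of 5656 genes were called higher and 264 lower. APE1 (-2.97, adjusted p = 0.0107), ATH1 (-1.25, adjusted p = 0.0332) and PRC1 (-1.10, adjusted p = 0.0347) were called lower, 3 of 7 hydrolases. VMA7 was called higher (1.41, adjusted p = 0.0253), 1 of 15 pump genes. ATH1, the acid trehalase, was higher than with the empty vector by 1.19 with Pdr1-Cyc8 (adjusted p = 0.0337) and by 1.31 with Pdr1-Sin3 (adjusted p = 0.00855). In the deletion ATH1 was 0.91 above the empty vector, without a call (adjusted p = 0.183).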

How the data were processed

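The deposited table holds intensities, 1 per probe set and array, already scaled: with 2% trimmed from each end their mean was 500.5 to 500.7 on every array. No source used here names the software or the background correction. Of 9335 probe sets, 60 controls were left out and 9275 tested; 6504 probe sets matched 1 gene in the platform annotation, with names updated through the RefSeq gene table. Array medians differed by a factor of 1.219, so values were quantile normalised and taken as log2(value + 16). Groups came from the sample titles, which call the replicates biological. Comparisons used 1 limma fit of all 15 arrays (version 3.58.1, R 4.3.3; 10 residual and 5.35 prior degrees of freedom), with Benjamini-Hochberg adjustment over 9275 probe sets in each of 7 comparisons. The fit was tested on simulated data. Named genes were the 7 members, up to 4 called genes per list and comparison with the largest differences, and the 8 genes most like the VTC mean. The members and lists were chosen with earlier results of these data known, so the tests are no independent support. The alternatives tried were deposited values without further normalisation, median centring, a pseudocount of 1 or 64, leaving out the dimmest 25%, an intensity trend with a robust prior, fits of only the groups compared or of 1 array set, leaving out 3 arrays, array weights, the replicate block, the mean of all probe sets, and leaving out each array. Same-numbered arrays of different groups did not in general deviate together (30 pairs, correlations from -0.35 to 0.33, median -0.02, 3 above 0.1). For arrays with different numbers the correlations were -0.52 to 0.44 (60 pairs, median 0.01, 11 above 0.1). Plots used matplotlib 3.10.9 (Python 3.11.15).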

Additional observations from a re-analysis of the deposited data

Results flagged for a closer look

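The effect of Pdr1-Cyc8 differed between cells without and with PDR1 for 4 of the 7 genes by the interaction test: VTC1 (1.75), VTC2 (1.10), VTC3 (1.10) and PHM8 (-2.90), on the log2 scale, where 11.5% of all probe sets were called. VTC2 and VTC3 each lost the call in 9 of 12 fits that left out 1 array, and under the replicate block (adjusted p = 0.0528 and 0.0604). For VTC1 the fusion's own effects were 1.19 without PDR1 and -0.56 with it, for VTC2 0.48 and -0.62, for VTC3 0.16 and -0.94, and for PHM8 -2.06 and 0.84. Each of these interactions sets arrays of the second array set against 3 groups of the first, so the set and the group cannot be told apart. With Pdr1-Cyc8 replicate 1 and deletion replicates 1 and 2 left out, the values were 1.45, 0.48, 0.59 and -1.17, and no call held. That fit kept 1 deletion array, whose spread was taken from the other groups. Groups of 3 arrays are too small for the search for single outlying arrays, which was not run.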

How the results depend on the processing

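Over 49 gene differences and 896 alternative values, 804 kept their direction and their side of the threshold, 43 lost a call, 21 gained one and 28 changed sign; no called difference changed sign. The cause of the changes was not tested. Counts over all probe sets moved too and stand in parentheses, the main count first. Of the 7 genes, Pdr1-Sin3 against the empty vector called 1 rather than 2 with median centring, with a pseudocount of 1 and with the replicate block (VTC3 lost, block adjusted p = 0.0541; 344, then 313, 231 and 293). It called 3 in a fit of only those groups (PHM8 added, adjusted p = 0.0457; 443) and with array weights (VTC2 added, adjusted p = 0.0474; 770), and 1 to 2 when single arrays were left out. The deletion against the empty vector called 1 rather than 0 with array weights (3, then 196) and 0 to 1 when single arrays were left out. Pdr1-Cyc8 in the deletion against the deletion called 0 rather than 2 without 3 arrays (Pdr1-Cyc8 replicate 1, deletion replicates 1 and 2, which had the lowest ribosome assembly values; 1760, then 309) and 2 to 3 without single arrays. Pdr1-Cyc8 in the deletion against Pdr1-Sin3 called 1 rather than 0 with median centring or a pseudocount of 64 (235, then 296 and 336). It called 2 without the dimmest probe sets, with an intensity trend, or in a fit of only those groups, the second array set (318, 310 and 414), and 3 without the 3 arrays or with array weights (440 and 533). The interaction called 2 rather than 4 with a pseudocount of 1, in a fit of its own groups and with the replicate block (VTC2 and VTC3 lost, block adjusted p = 0.0528 and 0.0604; 1067, then 710, 753 and 880), 0 without the 3 arrays (51), and 2 to 4 without single arrays. Pdr1-Sin3 against Pdr1-Cyc8 called 3 to 4 without single arrays. The replicate block changed no other count of calls. Fits without the 3 arrays kept 1 deletion array. PHO and vacuolar genes outside the 7 were not recomputed under the alternatives.

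Sign changes were all among differences without a call. Without the 3 arrays, the deletion against the empty vector gave 0.31 for VTC2, 0.34 for VTC3, 0.18 for VTC4 and -0.11 for PHM8. That setting gave -0.022 for VTC2 and -0.30 for VTC3 between Pdr1-Cyc8 in the deletion and the deletion, and -0.014 for PPN1 between Pdr1-Sin3 and Pdr1-Cyc8. Array weights gave 0.17 for VTC4 in the former comparison, and -0.037 and -0.036 for PPX1 in Pdr1-Sin3 against Pdr1-Cyc8 and Pdr1-Cyc8 in the deletion against Pdr1-Sin3. The values as deposited gave -0.0088 for PPX1 and -0.0095 for PPN1 between Pdr1-Sin3 and Pdr1-Cyc8. Leaving out single arrays gave, for Pdr1-Cyc8 against the empty vector, -0.061 to 0.36 for PPX1 and -0.012 to 0.17 for PPN1, and for the deletion against the empty vector -0.35 to 0.061 for VTC3. For Pdr1-Cyc8 in the deletion against the deletion they gave -0.028 to 0.39 for VTC3 and -0.32 to 0.25 for VTC4. For Pdr1-Sin3 against Pdr1-Cyc8 they gave -0.13 to 0.29 for PPX1, -0.069 to 0.23 for PPN1 and -0.28 to 0.48 for PHM8, and for Pdr1-Cyc8 in the deletion against Pdr1-Sin3 -0.058 to 0.070 for PPX1.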
